A study of Mus musculus with 7 samples.

Results

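The genes described here were grouped as left-right axis genes of the mouse embryo: *Nodal*, *Gdf1*, *Cfc1*, *Tdgf1*, *Lefty1* and *Lefty2*, which act in the Nodal pathway, and *Pitx1*, a transcription factor gene that is not a core component of it. They were measured in the posterior second heart field (pSHF), the progenitor tissue behind the heart tube, of Shh -/- and Shh +/+ embryos at E9.5. The members were all probes whose gene name in the scan files was one of these 7 symbols, which gave 7 probes of 41174 on the array, 1 for each gene, of 21475 genes named there, and all 7 could be tested. Each probe was printed in 1 spot per array. Tissue of embryos of 1 genotype was pooled before RNA extraction, and each of 7 pools was hybridized to its own Cy3 Agilent array, 4 from Shh -/- pools and 3 from Shh +/+ pools. Embryos of both genotypes were on a mixed C56B/6 and CD-1 background and came from superovulated Shh +/- females mated to Shh +/- males. The Shh -/- embryos lacked a functional *Shh* gene throughout, not in the pSHF alone. By the study's methods the dissected tissue included the attached foregut, while the heart, the dorsal lateral plate and the neural tube were taken away. The sources used here do not give the number of embryos per pool, and the p-values measure the spread between pools.

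Nodal is a TGFβ family ligand that signals through activin receptors and SMAD proteins. It needs an EGF-CFC co-receptor on the receiving cell, and GDF1 is its partner ligand. Around the early somite stages, cilia-driven flow at the node starts *Nodal* expression in the left lateral plate mesoderm, where the signal spreads and switches on its own inhibitors, the Lefty proteins. Lefty1 in the midline keeps the signal from crossing to the right side, and Shh from the notochord and floor plate is required for that midline expression. The wave in the lateral plate is brief and is over before the stage sampled here. Loss of *Shh* gives left-right defects that include left isomerism of the lungs. Pooled tissue of whole embryos does not separate left from right, and fewer cells of a type and less RNA per cell cannot be told apart in it.

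The first 30 of the 60 bases of each probe are printed here because each gene was read through a single probe, whose 60 bases are all that a value of that gene reports on. They are given 5′ to 3′ on the strand of the transcript as the deposited scan files hold them.
Nodal: ttattagattataaacgagccatttggttc
Gdf1: gaccgccccacgcaaaagcagggactgttt
Cfc1: tgtactgcctcccacaccaaacgttcagcc
Tdgf1: gatggaccaggacctcaaagcatccaggac
Lefty1: ctttcatgcaaatctgaagtgctcattata
Lefty2: ttgtcctaacttagtgctctcgtcagacct
Pitx1: taaatctgtctatatcaacttgtccatgta

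In the files' coordinates, which are of build mm9, the *Nodal* probe lies at chr10:60887790-60887849 on the plus strand and begins at base 1798 of its transcript. The *Gdf1* probe lies at chr8:72855399-72855458, plus strand, from transcript base 1564. The *Cfc1* probe is given the span chr1:34594245-34600893, plus strand, from transcript base 715, so its 60 bases align over a genomic interval of 6649 bases. The *Tdgf1* probe lies at chr9:110843254-110843313, minus strand, from transcript base 725, and the *Pitx1* probe at chr13:55926417-55926476, minus strand, from transcript base 2386. *Lefty1* and *Lefty2* are neighbouring genes with closely related coding sequences, and their probes lie at chr1:182868137-182868196 from transcript base 1208 and chr1:182827977-182828036 from transcript base 1204, both on the plus strand. These 2 probes had different sequences: the best ungapped alignment matched 20 of 60 bases with a longest shared run of 7 bases. Over all 21 pairs of the 7 probes the best alignments matched 17 to 24 bases. GC content ran from 38.3% in the *Pitx1* probe to 58.3% in the *Tdgf1* probe. An mm9 gene annotation was not used here, so exon and UTR positions are not stated.

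Across the series, 59.9% to 70.6% of probes per array were well above background by the scanner's test, no spot was saturated, and the correlation between any 2 arrays was 0.988 to 0.995. Pools with the same number shared a slide. Mutant pool 2 had a slide to itself and, by the labels, may have leaked during hybridization. On each shared slide the mutant array was in position 1 and the wild-type array in position 2, so genotype and position cannot be told apart. The targeted gene, *Shh*, read 9.67, 9.39, 9.22 and 9.32 (log2 of the background-corrected signal after variance stabilizing normalization, VSN, as for all log2 signals given here) in mutant pools 1 to 4 and 10.72, 10.74 and 9.98 in wild-type pools 1, 3 and 4. All mutant pools were below all wild-type pools, with a difference of -1.08 ± 0.20 (log2, SE; limma, Benjamini-Hochberg adjusted p = 0.0654). Where its probe lies relative to the deleted part of the mutant allele is not given in the sources used here, so a signal that remained in the mutants does not check the labels by itself. By the study's account, genotypes were also checked by RT-PCR of Hedgehog pathway transcripts before the arrays were run.

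Of the 7 genes, *Pitx1* was higher in the Shh -/- pools at 1.91-fold and passed the test by a small margin. *Gdf1* was lower, at 68.3% of the wild-type signal, with every mutant pool below every wild-type pool, and did not pass after adjustment. *Nodal* and the co-receptors *Cfc1* and *Tdgf1* overlapped between genotypes, and so did *Lefty1* and *Lefty2*, whose spots were near background and uneven in 3 pools. Of the 7 members 1 thus passed limma's adjusted p threshold of 0.05, in the direction higher in the mutant, beside 0.558% of 23128 probes tested in either direction, 0.264% higher and 0.294% lower. At an unadjusted p under the same threshold 2 of 7 members passed, beside 7.96% of all probes tested. Groups did not overlap for 2 of the 6 members measured in all pools, 1 higher and 1 lower, beside 8.34% of probes, 4.78% higher in the mutant and 3.56% lower. No member reached the study's own thresholds in the limma fit, beside 0.0216% of probes. A probe entered the test if it was named and well above background on all arrays of 1 genotype or of both. *Lefty1*, *Lefty2* and *Tdgf1* entered through the wild-type pools alone, so the counts over the members support no direction: 5 had a lower and 2 a higher fitted value in the mutant, with a median difference of -0.25 beside 0.02 for all probes tested.

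**Figure D1:**
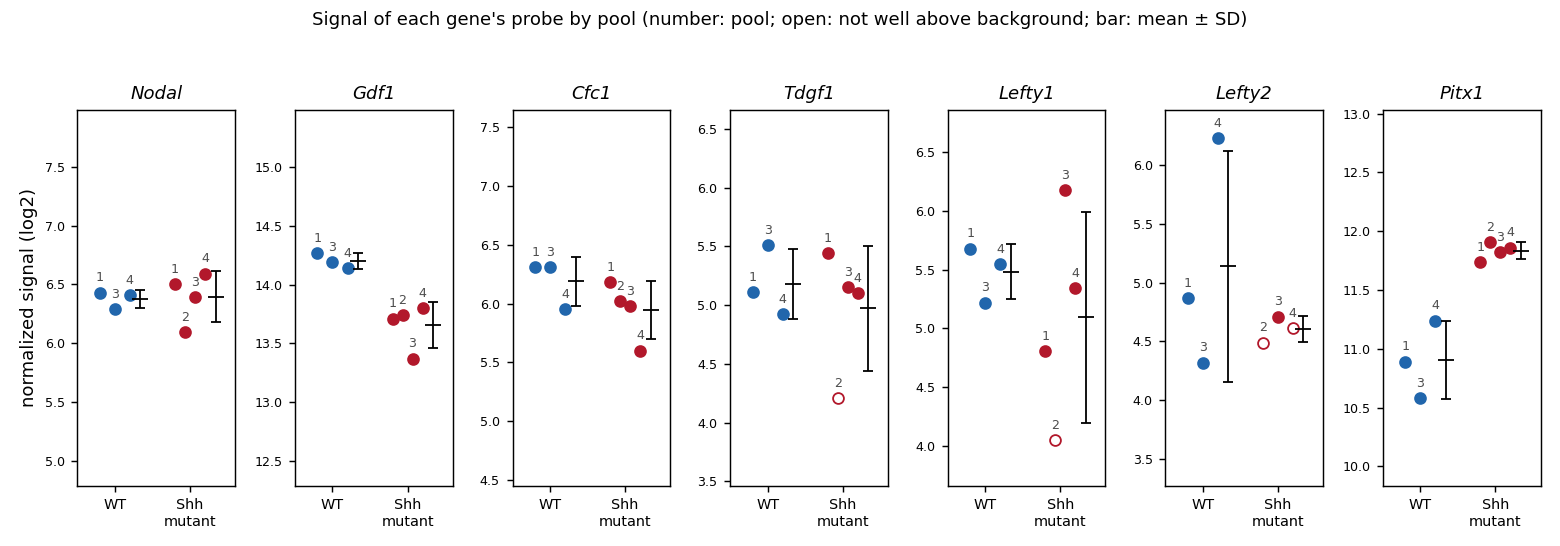
Normalized log2 signal (vertical axis) of the probe of each gene in every pool, wild type in blue and Shh mutant in red, with the pool number beside each point. Bars give the mean ± SD per genotype, and open circles mark spots not well above background. The genotypes are apart for *Gdf1* and *Pitx1* and overlap for the other 5 genes.

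*Nodal*, the ligand, was low in all pools. Its normalized log2 signal was 6.50, 6.09, 6.39 and 6.59 in mutant pools 1 to 4 and 6.43, 6.29 and 6.41 in wild-type pools 1, 3 and 4. The wild-type values lay inside the mutant range, whose lowest value was that of mutant pool 2. The spots were well above background on all 7 arrays, at 3.02 to 4.46 times the median of the negative control spots. The mean was 6.39 ± 0.22 (SD, n = 4) in the mutant and 6.38 ± 0.07 (SD, n = 3) in wild type. The difference was 0.02 ± 0.14 (log2, SE; limma, Benjamini-Hochberg adjusted p = 1), with a 95% interval from -0.30 to 0.33. On the linear scale that interval runs from 0.815-fold to 1.26-fold. It applies to the signal of the probe, and whether a change of *Nodal* RNA was damped at this low signal was not tested. Within slides 1, 3 and 4 the mutant array exceeded its wild-type partner by 0.08, 0.10 and 0.18.

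*Gdf1*, which encodes the partner ligand of Nodal, was lower in every mutant pool. The log2 signals were 13.71, 13.74, 13.37 and 13.80 in mutant pools 1 to 4, and 14.27, 14.19 and 14.14 in wild-type pools 1, 3 and 4. The highest mutant value, in pool 4, was below the lowest wild-type value, also in pool 4. Before any correction the scanner's mean signals were 11300, 14700, 15800 and 11300 in the mutant pools and 15700, 20200 and 19900 in wild type, where mutant pool 3 slightly exceeded wild-type pool 1. The means after normalization were 13.65 ± 0.19 (SD, n = 4) and 14.20 ± 0.06 (SD, n = 3). The difference was -0.55 ± 0.13 (log2, SE), with a 95% interval from -0.84 to -0.26, a ratio of 0.683 (0.558 to 0.837). It did not pass after adjustment (limma, Benjamini-Hochberg adjusted p = 0.134). The two-sided exact permutation test over all 35 splits of the 7 arrays gave p = 0.0286, the smallest value that design allows. That test exchanges arrays across slides and is not adjusted over probes. Its value reflects the lack of overlap between the groups, which 8.34% of all probes with 7 values showed. With the slide as a block the difference was -0.58 (limma adjusted p = 0.214). Within slides 1, 3 and 4 the differences were -0.56, -0.82 and -0.35. Without mutant pool 2 the difference was -0.57 (limma adjusted p = 0.229). *Gdf1* is transcribed together with *Cers1*, a ceramide synthase gene, on 1 bicistronic RNA. No probe under the symbol *Cers1* or its older symbol *Lass1* was found. Whether the *Gdf1* signal came from that shared RNA or from another transcript therefore could not be told.

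The co-receptors *Cfc1* (Cryptic) and *Tdgf1* (Cripto) encode the EGF-CFC proteins that let a cell respond to Nodal. *Cfc1* is the co-receptor used in left-right patterning, and *Tdgf1* the main one of the gastrula and of the early heart. The *Cfc1* log2 signal was 6.18, 6.02, 5.98 and 5.60 in mutant pools 1 to 4, while it was 6.31, 6.31 and 5.95 in wild-type pools 1, 3 and 4. Mutant pools 1, 2 and 3 lay inside the wild-type range, and mutant pool 4 was the lowest of all arrays. The mean was 5.94 ± 0.25 (SD, n = 4) against 6.19 ± 0.21 (SD, n = 3), a difference of -0.25 ± 0.16 (log2, SE; 95% interval -0.62 to 0.12; limma, Benjamini-Hochberg adjusted p = 0.942). The mutant array was the lower one on all 3 shared slides, with differences of -0.13, -0.33 and -0.36. All 7 spots were well above background, at 2.33 to 3.54 times the negative control median.

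*Tdgf1* was close to background. Its log2 signal was 5.44, 4.21, 5.15 and 5.10 in mutant pools 1 to 4 and 5.11, 5.51 and 4.92 in wild-type pools 1, 3 and 4. Apart from mutant pool 2, whose spot was not well above background, the mutant values lay within the wild-type range. The difference was -0.21 ± 0.28 (log2, SE; 95% interval -0.83 to 0.42; limma, Benjamini-Hochberg adjusted p = 1). Without mutant pool 2 it was 0.05, and within slides it was 0.33, -0.36 and 0.18, so its sign followed single arrays. The spots reached 1.48 to 2.30 times the negative control median, which leaves little room to see a decrease.

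**Figure D2:**
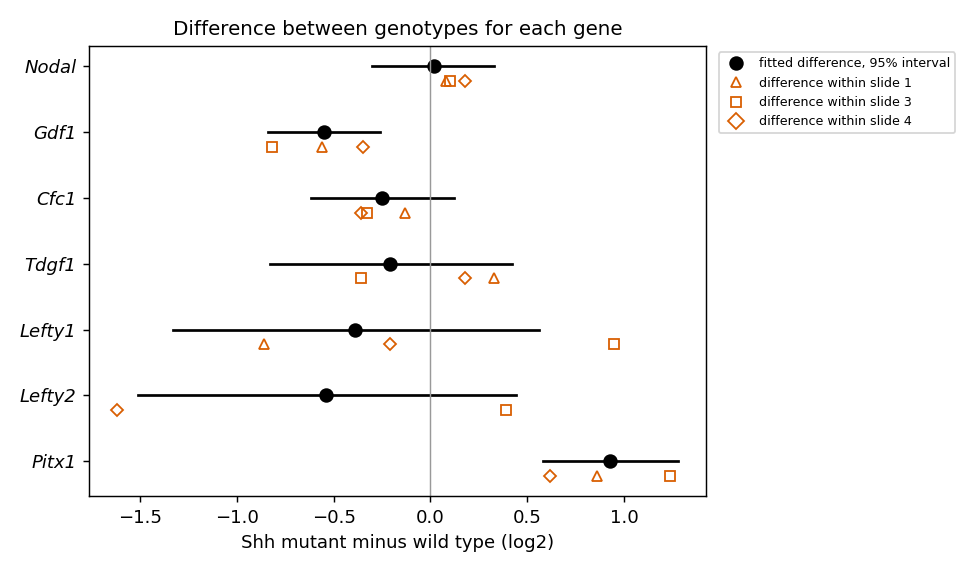
Difference between genotypes (Shh mutant minus wild type, log2, horizontal axis) for each gene: black points with lines are the limma estimate over all pools with its 95% interval, and orange marks are the differences within slides 1, 3 and 4. The intervals of *Gdf1* and *Pitx1* exclude 0 and their 3 slides have 1 sign each, while *Lefty1*, *Lefty2* and *Tdgf1* have slides on both sides of 0. The 3 slides of *Nodal* and of *Cfc1* also have 1 sign each, with intervals that include 0. *Lefty2* has no mark for slide 1, where the mutant spot was left out.

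*Lefty1* and *Lefty2* encode secreted inhibitors that block Nodal and its co-receptors, *Lefty1* mainly in the midline and *Lefty2* in the left lateral plate. The *Lefty1* log2 signal was 4.81, 4.05, 6.18 and 5.34 in mutant pools 1 to 4 and 5.68, 5.22 and 5.55 in wild-type pools 1, 3 and 4. Mutant pool 3 was the highest and mutant pool 2 the lowest of all arrays, with wild type in between. The spot of mutant pool 2 was not well above background, and the other 6 spots were at 1.77 to 3.94 times the negative control median. The high spot of mutant pool 3 was uneven: its mean signal was 131 and its median 108 over 62 pixels, and its pixel SD was 53.1% of the mean, a spread met or exceeded by 0.217% of the spots on that array. The other *Lefty1* spots had a pixel SD of 19.6% to 25.6% of the mean. The scanner did not mark the uneven spot as an outlier, so it stayed in the fit. The difference was -0.39 ± 0.42 (log2, SE; 95% interval -1.33 to 0.56; limma, Benjamini-Hochberg adjusted p = 1). Without mutant pool 3 it was -0.74 (limma adjusted p = 0.658), and without mutant pool 2 it was -0.05. On the linear scale the interval ran from 0.396-fold to 1.47-fold, so neither a large loss nor a moderate rise of *Lefty1* could be told from no change.

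*Lefty2* had a value in 6 pools. The spot of mutant pool 1 was marked non-uniform by the scanner and was left out. It had a mean signal of 4200, a median of 3150 and a pixel SD of 3210 over 57 pixels. In mutant pools 2, 3 and 4 the log2 signal was 4.49, 4.71 and 4.61, and the 3 wild-type arrays (pools 1, 3 and 4) read 4.87, 4.32 and 6.23. Wild-type pool 4 stood apart from the other 5 values, which lay between 4.32 and 4.87 with the genotypes mixed. That spot was uneven too, with a mean signal of 106, a median of 92 and a pixel SD of 53.3% of the mean, which 0.159% of the spots on that array met or exceeded. The *Lefty2* spots were well above background in 1 of 3 mutant pools and in all 3 wild-type pools. The fitted difference was -0.54 ± 0.42 (log2, SE; 95% interval -1.51 to 0.44; limma, Benjamini-Hochberg adjusted p = 1). Without wild-type pool 4 it was 0.01, and with the non-uniform spot kept, at a log2 signal of 12.27, it was 1.38 ± 1.76. The *Lefty2* difference therefore followed the treatment of 2 uneven spots, and at this signal no change of *Lefty2* was detectable.

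*Pitx1*, a homeodomain transcription factor of the Pitx family, is known for its part in the first branchial arch, the pituitary and the hindlimb. It was the only member to pass the adjusted threshold. Its log2 signal was 11.74, 11.91, 11.82 and 11.86 in mutant pools 1 to 4 and 10.89, 10.58 and 11.24 in wild-type pools 1, 3 and 4. The 4 mutant pools lay close together and the lowest of them was above the highest wild-type pool, pool 4, while the wild-type pools were more spread. The spots were bright, at 51.7 to 163 times the negative control median. The uncorrected mean signals were 2920, 4160, 5420 and 2970 in the mutant pools and 1530, 1670 and 2680 in wild type, also without overlap.

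The *Pitx1* mean was 11.83 ± 0.07 (SD, n = 4) in the mutant and 10.90 ± 0.33 (SD, n = 3) in wild type. The difference was 0.93 ± 0.16 (log2, SE), with a 95% interval from 0.58 to 1.28, or 1.91-fold (1.49 to 2.44). It passed limma's test with a Benjamini-Hochberg adjusted p of 0.0456 and ranked 110th by p among all probes tested. The two-sided exact permutation test, which exchanges arrays across slides, gave p = 0.0286, the smallest value possible with 35 splits. This value too reflects the lack of overlap and is not adjusted over probes. Within slides 1, 3 and 4 the mutant exceeded wild type by 0.86, 1.24 and 0.62. With the slide as a block, which drops mutant pool 2, the difference was 0.91 and the adjusted p 0.102 in limma. Leaving out any array except wild-type pool 4 also took the adjusted p above the threshold (limma, 0.0666 to 0.233 for differences of 0.77 to 0.96). Without wild-type pool 4 the difference was 1.1 (limma adjusted p = 0.0409). The direction of *Pitx1* thus held in every pool and slide, and its call did not.

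**Figure D3:**
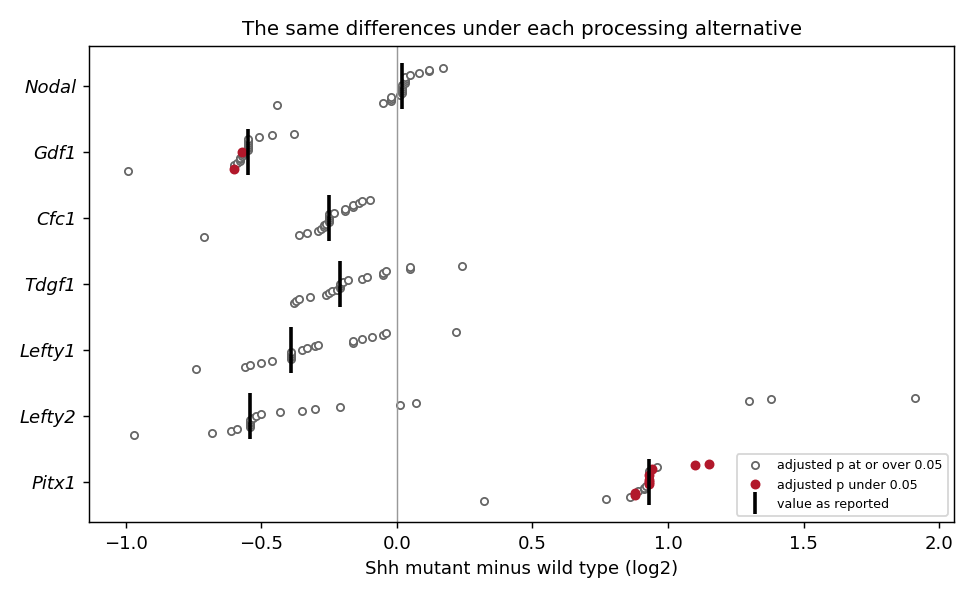
The difference between genotypes (Shh mutant minus wild type, log2, horizontal axis) for each gene as reported (black bar) and under each other way of processing the arrays (circles, filled red where limma's adjusted p was under 0.05; vertical offsets only separate the points). *Pitx1* stayed above 0 and *Gdf1* and *Cfc1* below 0 throughout, while *Lefty2* ran from -0.97 to 1.91.

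Because *Pitx1* is known from the first arch and the hindlimb, lists of those tissues were read on the same arrays, each gene by its brightest tested probe. By the study's methods, tissue in front of the heart and behind it was cut away before the pSHF was taken. Of the first arch list, 8 of 9 genes were tested and 2 passed, both lower in the mutant: *Dlx1*, at -1.55 ± 0.14 (log2, SE; limma, Benjamini-Hochberg adjusted p = 0.0082), and *Dlx2*, at -1.27 ± 0.16 (adjusted p = 0.0186, and 0.0635 with the slide as a block). These are homeobox genes of the arch mesenchyme. The list had 5 genes lower and 3 higher, with a median of -0.34, beside 0.02 for all probes tested. The 3 higher genes, in the direction of *Pitx1*, were *Msx1* (0.32, and 0.30 by its other probe), *Barx1* (0.28) and *Hand2* (0.25, and 0.19 by its other probe). None of these 3 passed. *Lhx8*, 1 of the 5 lower genes, entered the test through the wild-type pools alone. The mean log2 level of the 8 tested genes, *Lhx8* included, was 8.04 to 8.34 in the mutant pools and 8.56 to 8.85 in wild type. That mean includes *Dlx1*, *Dlx2* and *Lhx8* (-1.13), and the genes of the list did not share 1 direction. *Dlx6* was well above background on no array. Of the posterior lateral plate and hindlimb list, 1 of 6 genes could be tested, *Hoxc9*, which entered through the mutant pools alone, with a difference of 0.57 (limma adjusted p = 0.879). *Tbx4*, the hindlimb T-box gene, was well above background on 1 array of 7, and *Hoxc10* and *Hoxa10* on none. Whether tissue of either kind had a part in the *Pitx1* difference was not tested.

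The receptors and transducers of Nodal showed no member past the threshold. All 8 were tested (*Acvr1b*, *Acvr1c*, *Acvr2a*, *Acvr2b*, *Smad2*, *Smad3*, *Smad4* and *Foxh1*), 4 were lower and 4 higher, and the differences ran from -0.22 for *Acvr2b*, a type II activin receptor, to 0.11 for *Acvr2a*, the other one. *Foxh1*, the DNA-binding partner of SMAD2 in Nodal responses, read 10.11 ± 0.32 (SD, n = 4) in the mutant and 10.12 ± 0.09 (SD, n = 3) in wild type. Of the related ligands and the convertases that cut the Nodal precursor, 4 of 5 were tested and none passed. *Inhbb* had the largest difference, 0.46 (limma adjusted p = 0.594), and *Inhba* was next at 0.31 (adjusted p = 1); both encode activin subunits. *Gdf3*, a further Nodal-related ligand, was well above background on no array. The receptors and transducers other than *Acvr1c* were well above background on all 7 arrays, and the median difference of that list was 0.00.

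Among the other inhibitors of the pathway 7 of 8 were tested and none passed, with a median difference of -0.07. *Ski*, a repressor of SMAD complexes, had a difference of 0.24 by its brightest probe (limma adjusted p = 0.632) and -0.03 and -0.13 by its other probes. *Tgif1*, a homeodomain repressor, had -0.15 (adjusted p = 1). *Cer1*, a secreted Nodal antagonist, was well above background on no array. Of the genes that respond to Nodal in the gastrula, 3 of 5 were tested, all 3 were higher and none passed, with a median difference of 0.55 and a mean level of 8.55 to 8.94 in the mutant pools against 8.12 to 8.34 in wild type, without overlap. *Gsc* had a difference of 0.63 (limma adjusted p = 0.93), with slide 1 at -0.41 against 1.26 and 1.18 on slides 3 and 4, and *Hhex* had 0.55 (adjusted p = 0.148) by its brightest probe and 0.22 by another. *Hhex* is also expressed in the liver bud. Of the genes of node cilia and flow sensing, 6 of 11 were tested, none passed and the median was -0.02. The largest differences of that list were -0.20 for *Rfx3* and -0.19 for *Foxj1*, both cilia transcription factors (limma adjusted p = 1 for both), and *Pkd1l1* was well above background on no array. By its other tested probe *Rfx3* had 0.12.

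The notochord and floor plate, which hold the midline domain of *Lefty1*, were represented by 6 of 7 listed genes, none of which passed the threshold. One of them is *Shh*, the deleted gene itself, and another is *T* (Brachyury), the notochord T-box factor, which entered the test through the wild-type pools alone. The *T* spot was well above background in none of the 4 mutant pools and in all 3 wild-type pools. With the mutant spots taken at the background limit, the means lay 1.31-fold apart, a lower bound that carries no interval and no test. The measured difference was -0.81 (limma, Benjamini-Hochberg adjusted p = 0.113) and did not pass. The other 4 genes had small differences: -0.31 for *Nog*, -0.25 for *Foxa2*, -0.06 for *Foxa1* and -0.05 for *Chrd*. *Foxa1* and *Foxa2* are also in the foregut endoderm list, and the dissected tissue included the foregut. The mean level of all 6, with *Shh* and *T* included, was 7.71 to 7.90 in the mutant pools and 8.17 to 8.28 in wild type, and is therefore no reading of midline tissue. *Lefty1* overlapped between genotypes on the same arrays. Whether the amount of midline tissue in the pools bears on *Lefty1* was not tested.

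**Figure D4:**
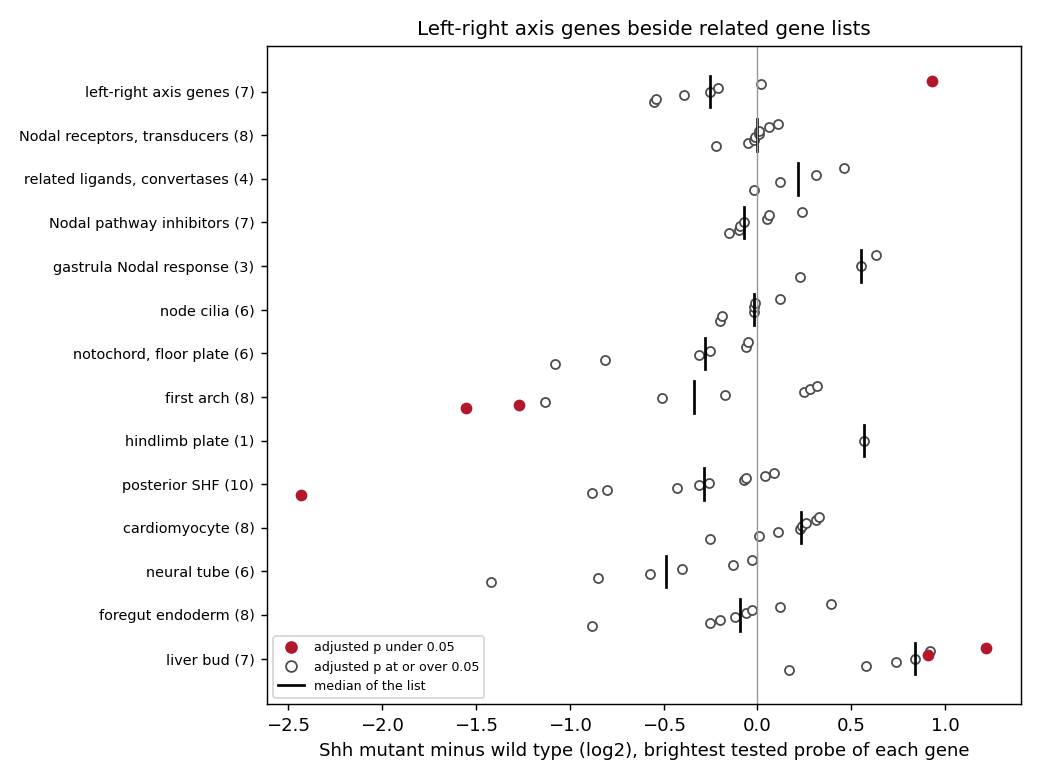
Difference between genotypes (Shh mutant minus wild type, log2, horizontal axis) for the left-right axis genes and for related gene lists, 1 circle per gene by its brightest tested probe, filled red where limma's adjusted p was under 0.05, with a bar at the median of each list and the number of genes tested in parentheses. Receptors, inhibitors and cilia genes lie near 0, and the liver bud list lies to the right with a median of 0.84.

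Markers of the tissues in the dissection were read beside these results. The pSHF list was measured in full: all 10 genes were tested, 8 were lower in the mutant and 1 passed, *Foxf2*, a forkhead factor of the splanchnic mesoderm, at -2.43 ± 0.18 (log2, SE; limma, Benjamini-Hochberg adjusted p = 0.00216). *Osr1*, a zinc finger factor of the lateral plate, had -0.88 (adjusted p = 0.232). *Foxf1a*, another forkhead factor gene, had -0.80 (limma adjusted p = 0.0927). The 2 higher genes of the list were *Wnt2* (0.09) and *Gata4* (0.04), and the list median was -0.29. The mean level of this list was 10.59 to 10.85 in the mutant pools and 11.18 to 11.29 in wild type. That mean includes *Foxf2*, *Osr1* and *Foxf1a*, and is therefore no reading of the amount of pSHF tissue. The liver bud list moved the other way, with all 7 genes higher and 2 past the threshold: *Alb* (albumin) at 1.22 ± 0.21 (limma adjusted p = 0.0494, and 0.0888 with the slide as a block) and *Ttr* (transthyretin) at 0.91 ± 0.14 (limma adjusted p = 0.0318, and 0.103 with the block). Its mean level was 10.97 to 11.35 in the mutant and 10.32 to 10.58 in wild type, without overlap. *Apoa1*, an apolipoprotein gene, had 0.92 (limma adjusted p = 0.156). The count of 7 higher genes is by brightest probes. *Hnf4a*, a transcription factor gene, had 0.84 by that probe and -0.15 by another. *Prox1*, also a transcription factor gene, had 0.58 by that probe and 0.03 and 0.30 by its others. Levels of the first arch, pSHF, foregut and notochord lists, all lower in the mutant, did not overlap between genotypes either. Nor did those of the gastrula list, which were higher. The foregut and notochord lists share *Foxa1* and *Foxa2*. How often the means of other gene lists separate was not computed, so the separation is given as a description only.

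The foregut endoderm list had 6 of 8 genes lower and none past the threshold, with *Nkx2-1*, the thyroid and lung factor, at -0.88 (limma adjusted p = 0.0518) and *Krt8*, a keratin, at 0.39 (limma adjusted p = 0.39). Its mean level was 11.56 to 11.64 in the mutant pools and 11.69 to 11.79 in wild type. The cardiomyocyte list had 7 of 8 genes higher and none past the threshold, with *Myl4* at 0.33 and *Myh7* at 0.31 (limma adjusted p = 1 for both, sarcomere genes), and mean levels of 13.75 to 14.89 against 13.88 to 14.55. The neural tube list had 6 of 7 genes tested, none past the threshold, with *Nkx6-1* at -0.85 (limma adjusted p = 0.0676) and mean levels of 6.99 to 7.84 against 7.79 to 7.85. All 6 fitted values were below 0, but *Neurog2*, at -1.42 (limma adjusted p = 0.934), entered through the wild-type pools alone, had an SD of 2.04 among the mutant pools and was 1.37 higher in the mutant on slide 1. All 8 heart markers and 5 of the 7 neural tube markers were well above background on every array, in tissue from which heart and neural tube had been dissected away. The part of these tissues in the *Pitx1* and *Gdf1* differences was not tested.

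For the 4 members well above background on all 7 arrays, the probes with the most similar pattern were looked up among 23025 others. These correlations cover 7 arrays that share genotype, slide and RNA pool, and are given as descriptions. *Pitx1* was most like *Sardh*, which encodes sarcosine dehydrogenase (Pearson r = 0.992, Spearman correlation 0.893), whose own difference was 0.90. *Gdf1* was most like *Bdh2* (r = 0.992, Spearman 0.929), *Cfc1* was most like *P42pop* (r = 0.985, Spearman 1), and *Nodal* was most like *Rhob* (r = 0.991, Spearman 0.964). With r above 0.95 there were 38 probes for *Pitx1*, 20 for *Gdf1*, 18 for *Cfc1* and 34 for *Nodal*. The nearest probe was in none of the 4 cases that of another member.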

How the data were processed

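Total RNA from pooled pSHF tissue, 0.5 µg per pool, was labelled with Cy3 and hybridized to 7 single-colour Agilent arrays. The authors' deposited scan files hold spot intensity read by Agilent Feature Extraction 10.5.1.1, and their deposited normalized values are on the log2 scale. The latter served only as an alternative, since their array medians ran from 5.50 to 9.93. Groups and pool numbers came from the labels, in which the entries for strain and for genotype each hold what belongs in the other.

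Normexp was applied to the mean signals, with its background taken from 153 negative control spots and an offset of 50. Spots marked as outliers were left out. Arrays were then normalized with an own version of VSN (share kept in trimming 0.9, 7 rounds, 5 strata), after which the array medians spanned 0.18. Named probes with at least 2 values per genotype, all arrays of 1 or both genotypes being well above background, were tested across all genes with limma 3.58.1 (lmFit, eBayes) in R 4.3.3 (tables read with version 1.17.8 of the data.table package), Benjamini-Hochberg over 23128 probes of 14895 genes, threshold 0.05. The study's test, SAM, was not run here. The study's thresholds were taken as an adjusted p under 0.005 and a change over 2-fold. The steps were tested on simulated data. Figures used matplotlib 3.10.9 in Python 3.11.15.

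The members and gene lists were chosen with earlier results of these data known. Named from each list were at least the genes past the threshold and the 2 with the largest differences, by the brightest tested probe. Some further genes were named beside them. By the labels the pool number marks a shared slide, which pairs the pools. Same-slide arrays deviated together at r = 0.192, 0.238 and 0.0328, and arrays of different slides at -0.22 to 0.187 (mean -0.049), so slide 4 lay within the range of unpaired arrays. The number of arrays limits the precision. Levels of different probes are not compared. Alternatives were 75th percentile scaling, quantile normalization, no background correction, processed signals, the authors' values, dim probes not filtered out, a filter on the interquartile range (top 0.5), outlier spots kept, array weights, slide as a fixed or random block, a variance trend, the study's thresholds and leaving out each array. Added after seeing the data were the authors' values set to 1 median and the median pixel signal.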

Additional observations from a re-analysis of the deposited data

Results flagged for a closer look

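One spot outside the comparisons stood out. The *Lefty2* spot of mutant pool 1, left out because the scanner marked it non-uniform, had a mean signal of 4200, which is 153 times the negative control median of that array, while the 6 *Lefty2* spots used were at 1.46 to 3.66 times theirs. Its pixel SD was 76.6% of the mean, a spread that 0.0807% of the spots on that array met or exceeded. The authors' normalized table holds a value of 12.05 for it.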

How the results depend on the processing

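*Pitx1* stayed higher in the mutant under all 21 alternatives (0.32 to 1.15) and *Gdf1* (-0.99 to -0.38) and *Cfc1* (-0.71 to -0.10) stayed lower. The ends 0.32, -0.99 and -0.71 are from the authors' values as deposited, where the median difference over all probes tested was -0.54. *Pitx1* passed the threshold under 9 alternatives, with adjusted p from 0.00652 to 0.934, and *Gdf1* under 2, quantile normalization (-0.60, adjusted p = 0.0398) and array weights (-0.57, 0.0253). The cause was not tested. The count of members called, 1 as reported, was 2 with array weights and 0 with processed signals, the authors' values as deposited or set to 1 median, no filter on dim probes, the study's thresholds and the replicate block, and 0 to 1 leaving out an array. Under quantile normalization the member called was *Gdf1*, with *Pitx1* at 0.86 (adjusted p = 0.0609). The count over all probes, 129, was 54 with processed signals, 0 with the authors' values in both forms (28 and 1038 at an unadjusted p under 0.05 in limma), 33 with no filter, 550 with array weights, which gave wild-type pool 3 a weight of 5.89, 5 at the study's thresholds, and 12 to 139 leaving out an array. With the replicate block, which drops mutant pool 2, it was 11, and *Pitx1* lost its call. *Shh* passed the threshold with 75th percentile scaling (-1.06), the interquartile range filter, the random block and the variance trend (-1.08 each) and array weights (-1.23), and ran from -1.33 to -0.95 leaving out an array, passing without wild-type pool 4 (-1.33, adjusted p = 0.0409).

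Signs turned for members near 0 or near background. *Nodal* was -0.02 with 75th percentile scaling and -0.05 to 0.12 leaving out an array, and the interquartile range filter removed it. In the authors' values as deposited *Nodal* was -0.44, where the median over all probes tested was -0.54. With those values set to 1 median it was 0.17. *Lefty1* was 0.22 in the authors' values set to 1 median. *Lefty2* was 1.30 and 1.91 in the authors' values as deposited and set to 1 median, 1.38 with outlier spots kept, 0.07 with array weights, and -0.97 to 0.01 leaving out an array. *Tdgf1* was 0.05 with the replicate block, 0.24 in the authors' values set to 1 median, and -0.36 to 0.05 leaving out an array.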
